A study of Sus scrofa with 30 samples.

Results

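The comparison described here was that of liver from pigs of low birth weight with liver from pigs of normal birth weight before any feed restriction, at the first sampling (T1). Its members were chosen by label: the 3 arrays of the low birth weight group at T1 (U) and the 3 of the normal birth weight group at T1 (N), 6 of the 30 arrays in the study. The U pigs weighed 0.8 to 1.1 kg at birth and the N pigs 1.4 to 1.6 kg. All were adolescent females, were suckled by their dams until weaning at day 28, were then housed singly with feed and water always available, and had met no restriction when the liver was taken, at day 76 by the sample labels and day 75 by the description of the series. The piglets were taken from a litter by their birth weight, and 3 animals per group and time point were picked at random for the arrays. No breed is given in the sources used here. The other 24 arrays came from other pigs: fed (K) or restricted (R) pigs of both birth weights. These were taken when the 3 weeks of restriction had ended (T2) or when the 5 weeks of free feeding that followed had ended (T3). Their arrays were used to set the T1 result beside. The T2 arrays also shared in the estimate of the spread on which the main test of U against N rests. All 24 also served to match the authors' table of intensities to the arrays.

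A piglet is born small mostly because growth in the womb was held back by a limited supply of nutrients through the placenta. The liver, which governs blood glucose, makes most plasma proteins and handles amino acids, bile acids and lipids, is one of the organs in which lasting effects of a poor start have been looked for. The question the T1 comparison addresses is whether the liver of a pig born small differs in its messenger RNAs from that of a normal pig when both have eaten freely for weeks.

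Total RNA was labelled with Cy3 and hybridised to 1-colour arrays of 60900 pig probes, each of 60 bases. A level is given here as the log2 of the processed signal minus the 75th percentile of the same array, so that 0 is the signal that 75 in 100 probes do not reach, and a difference of 1 is a doubling. The files pair the probes with no gene name, so that probes are named by their identifier and sequence, and the liver origin of the RNA could not be checked against marker genes. In such bulk tissue, fewer cells of a type and less RNA per cell cannot be told apart.

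The probes on which the account below turns are shown here, 5′ to 3′ as on the array, all in lower case because no part of them is set apart. The first 4 had the largest differences upward in U, and the other 4 the largest downward, among probes that were well above background on all 6 arrays and whose groups did not overlap.
PigEx0027168: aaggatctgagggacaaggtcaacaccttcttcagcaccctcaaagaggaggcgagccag
PigEx0027169: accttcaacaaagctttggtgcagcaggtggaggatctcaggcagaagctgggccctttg
PigEx0027170: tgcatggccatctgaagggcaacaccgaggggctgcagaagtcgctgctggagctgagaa
PigEx0017835: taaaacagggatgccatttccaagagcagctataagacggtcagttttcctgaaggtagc
PigEx0031933: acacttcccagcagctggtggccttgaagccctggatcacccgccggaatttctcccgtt
PigEx0037458: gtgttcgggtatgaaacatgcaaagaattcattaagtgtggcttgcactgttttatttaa
PigEx0037459: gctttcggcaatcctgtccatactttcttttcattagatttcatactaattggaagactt
PigEx0046594: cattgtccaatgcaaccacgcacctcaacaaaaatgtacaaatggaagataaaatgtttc

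No probe passed the test between the U and the N livers. Among 39320 probes tested, limma called 0 at an adjusted p under 0.05 (0% called), and the lowest adjusted p was 0.999985. At an unadjusted p under 0.05 limma gave 700 probes, where evenly spread p-values would give 1966. With the replicate number as a block, limma gave 1605 such probes and again 0 calls. This count depended on the setting and passed 1966 with array weights (2058) and with the replicate block in the 6 T1 arrays alone (2041), each with 0 calls. The differences themselves were small: the median size of the difference between U and N was 0.15, and the middle 50 in 100 probes lay between -0.14 and 0.16, around a median of 0.01. A difference of more than 1 was measured for 189 probes upward in U and 135 downward, together 0.824% of the probes tested.

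The width of the intervals sets what 3 pigs against 3 could show. The intervals come from the fit without the replicate block, with the spread pooled over the T1 and T2 arrays. From its estimate to its end, the median 95% confidence interval of a probe reached 0.54 on the log2 scale, and for 76.4% of the probes the whole interval lay between -1 and 1. For those probes a doubling of the mean level in either group relative to the other lies outside the interval, 1 probe taken at a time. For the others, a difference of that size was not excluded by the interval. Which smaller differences this number of arrays could detect was not tested.

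All 3 U livers lay above all 3 N livers for 1395 of the 39322 kept probes (3.55%), and below them for 1150 (2.92%). Among the 36919 probes that were well above background on all 6 arrays, the counts were 1247 (3.38%) and 1071 (2.9%). The largest differences named here come from these last 2 sets, so that their lack of overlap was a condition of the choice and carries no weight of its own.

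**Figure D1:**
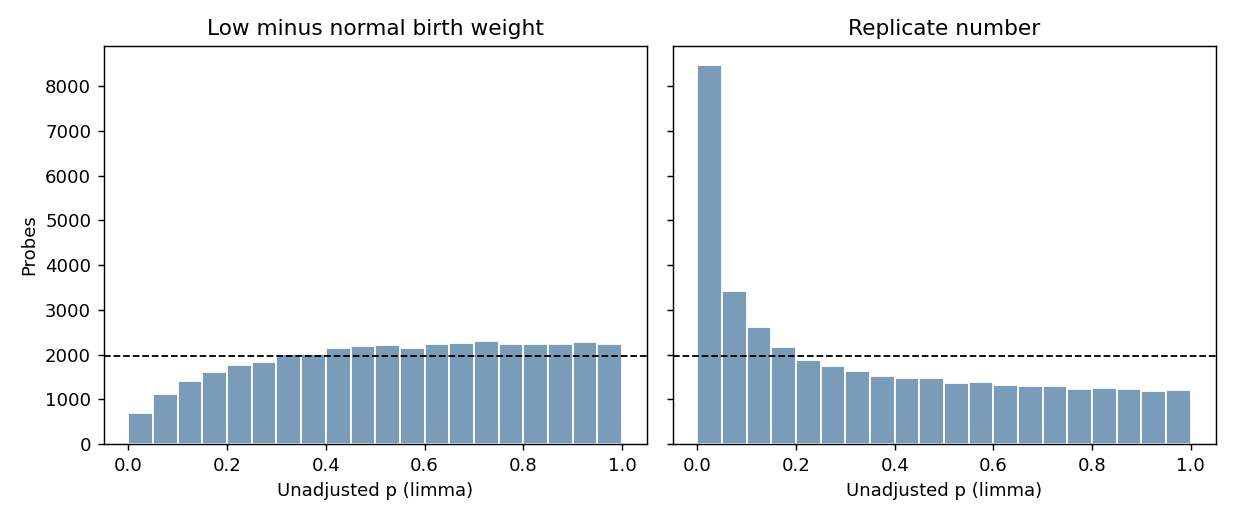
Number of probes by unadjusted limma p in bins of 0.05, for low minus normal birth weight (left) and for replicate number (right) among the T1 arrays. The dashed line is the even share; the leftmost bin holds 700 probes for birth weight and 8477 for replicate number.

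The livers resembled one another by replicate number more than by birth weight. Over the 39241 kept probes with a value on all 6 arrays, the correlation of levels across probes was 0.9786, 0.9926 and 0.9906 between the U and N livers numbered 1, 2 and 3. Between livers of the same birth weight it ran from 0.9657 to 0.9876 over 6 pairs, and between livers that shared neither birth weight nor number from 0.9661 to 0.9863 over 6 pairs. The livers numbered 2 and 3 were thus each most like the liver of the same number in the other group, while N liver 1 was closer to N liver 3 (0.9799) and U liver 3 (0.98) than to U liver 1.

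Split over the 6 arrays, birth weight held 13.2% of the sum of squares around each probe's mean, replicate number 62.7% and the remainder 24.1%. With levels that had no structure at all, the degrees of freedom would give 20%, 40% and 40%. Birth weight and the remainder both took less than their shares, and replicate number took more. As the shares make up a whole, a large share of replicate number lowers the others. Without the pair numbered 1, birth weight held 27.8%, replicate number 51.6% and the remainder 20.6%, against 33.3% each from the degrees of freedom. Without the pair numbered 2 birth weight held 21.9% and the remainder 22.7%, and without the pair numbered 3 they held 21.2% and 20.6%. Birth weight and the remainder were thus both below the share of their degrees of freedom in each of these reduced sets. Birth weight was above the remainder without pair 1, and close to it without pair 2 or pair 3.

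A limma F test of replicate number within T1, added after the data were seen, called 2053 of 39312 probes (5.22%), with a lowest adjusted p of 3.59e-06. At an unadjusted p under 0.05 it gave 8477 probes, where evenly spread p-values would give 1966. This count rested most on U liver 1: limma called 174 probes without it and 1722 without N liver 1. Leaving out another single liver gave 1030 (N liver 2), 1133 (N liver 3), 806 (U liver 2) or 817 (U liver 3). It called 2 probes without both livers of number 1, and 57 when the T2 arrays did not share in the estimate of the spread. No label says what a number stands for beyond the order of the replicates.

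**Figure D2:**
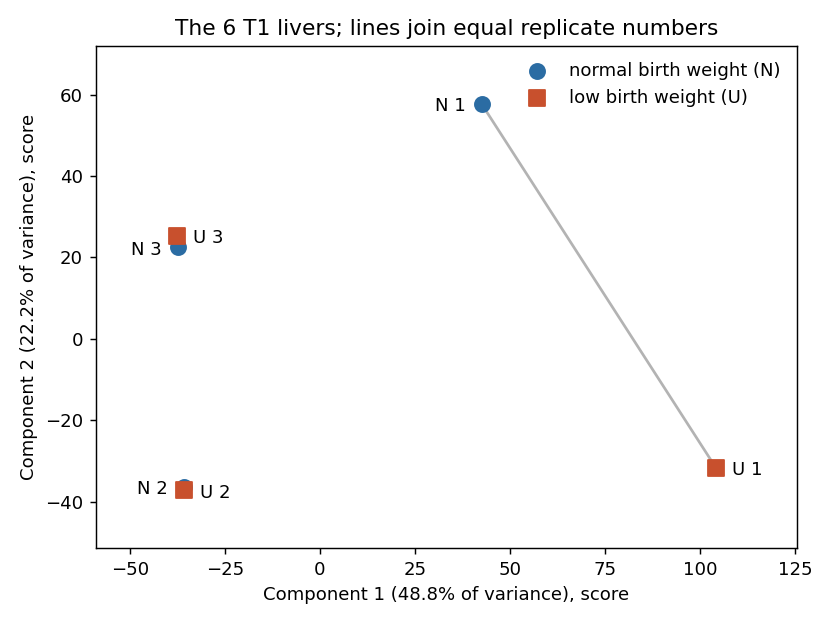
Scores of the 6 T1 livers on the first 2 principal components of 39241 probes (blue circles N, orange squares U, grey lines joining equal numbers). U liver 1 lies farthest out on component 1, N liver 1 next, and the N and U livers of numbers 2 and 3 almost coincide.

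The first principal component, with 48.8% of the variance, set U liver 1 (score 104) and N liver 1 (42.5) apart from the other 4, which lay between -37.7 and -35.8. The second, with 22.2%, placed U liver 3 at 25.3 and N liver 3 at 22.4, and U liver 2 at -37.2 and N liver 2 at -36.5. Neither axis separated U from N. U liver 1 stood apart most: 1215 probes differed there by more than 1 from each of the other 5 livers, against 327 in N liver 1 and 88 to 115 in the rest. Its 75th percentile signal, 379, was the lowest of the 6, and its share of probes well above background, 65.1%, was too, though N liver 1 had 65.5%. The part of these measures in its position was not tested.

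The difference between U and N was not the same from one numbered pair to the next. Its standard deviation over probes was 0.63 in pair 1, 0.36 in pair 2 and 0.41 in pair 3. Across 39241 probes, the differences of pairs 1 and 2 correlated at 0.021, those of pairs 1 and 3 at -0.02 and those of pairs 2 and 3 at 0.149. A difference above 1 was seen upward in U for 1776 probes in pair 1, 539 in pair 2 and 550 in pair 3, and downward for 2026, 237 and 602. The pairs thus differed in both the number and the direction of their large differences.

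The sign was the same in all 3 pairs for 5577 probes upward in U (14.2%) and 5305 downward (13.5%). In all 3 pairs the difference passed 1 for 33 probes upward and 4 downward, of 39241. Of the 33, 22 were well above background on all 6 arrays, 21 had groups that did not overlap, and 18 lay within 2 probe numbers of another of the set. Over all kept probes U lay wholly above N for 3.55%, and a large difference in every pair favours such a lack of overlap. Their mean differences ran from 1.15 to 2.85, and their lowest adjusted p in limma with the replicate block was 0.521. In fed pigs at T2, other animals, 10 of these 33 were higher in low birth weight and 3 of the 4 downward probes were too. This leaves most of both sets with the opposite sign there, where 53.3% of all kept probes were higher in low birth weight.

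The run PigEx0027168, PigEx0027169 and PigEx0027170 held the 3 largest differences of all named probes with like values in every liver. PigEx0027170 stood at 3.82, 3.31 and 1.25 in N livers 1, 2 and 3 and at 5.16, 5.44 and 4.14 in U livers 1, 2 and 3. All 3 U livers lay above the highest N liver, by 0.32 or more, and the lowest N value was that of liver 3. The mean was 2.79 ± 1.36 (SD, n = 3) in N and 4.91 ± 0.68 in U, a difference of 2.12 (SE 1.07, 95% interval -0.16 to 4.41), or 4.35-fold. In limma the adjusted p was 0.999985. With the replicate block in limma the SE was 0.65, the unadjusted p 0.0076 and the adjusted p 0.995.

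The neighbouring members of the run repeated those values. PigEx0027168 stood at 4.77, 4.26 and 2.31 in the N livers and at 6.17, 6.39 and 5.12 in the U livers, a difference of 2.12. For PigEx0027169 the N values were 4.01, 3.46 and 1.53 and the U values 5.38, 5.58 and 4.37, a difference of 2.11. Over all 30 arrays the levels of PigEx0027170 correlated at 0.996 with PigEx0027168 and at 0.998 with PigEx0027169. The longest stretch of bases that any pair of the 3 shared was 7, so that the signals came from separate sequences. Of the probes around the run, PigEx0027167 differed by 0.17 and PigEx0027172 by -0.19. PigEx0027171, which lies next to the run, was well above background on 0 of the 6 arrays and was not tested.

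Within the numbered pairs PigEx0027170 was higher in U by 1.34, 2.13 and 2.90, a sign that the choice of probes had fixed. The 6 arrays lay on 2 slides, with N livers 2 and 3 and U livers 1 and 2 on slide 1 and N liver 1 and U liver 3 on slide 2. Within slide 1 the difference for PigEx0027170 was 3.02 and within slide 2, with 1 array of each group, it was 0.32. Leaving out each array in turn gave differences from 1.35 to 2.64.

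PigEx0017835 was a dim probe whose U mean rested on a single liver. It stood at -3.10, -3.69 and -4.25 in N livers 1 to 3 and at 0.17, -2.08 and -3.04 in U livers 1 to 3. The groups were 0.06 apart at their nearest, and U liver 1 stood far above the rest. The difference was 2.03 (SE 1.10, 95% interval -0.32 to 4.38; limma adjusted p 0.999985), 1.12 without U liver 1, and 1.19 with normexp background correction. With the replicate block its SE was 1.15. Within slide 1 the difference was 3.02 and within slide 2 it was 0.06.

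PigEx0017834 and PigEx0017836, numbered beside PigEx0017835, differed by 1.66 and 2.11, and PigEx0017836 overlapped between the groups. PigEx0017836 holds 33 bases of PigEx0017835 in an unbroken stretch, so that these probes are largely a repeat measurement of the same sequence. PigEx0017834 shares at most 6 bases in a row with PigEx0017835 on the same strand.

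The largest difference downward, for PigEx0031933, came from N liver 1. That liver stood at 2.18, N livers 2 and 3 at -2.21 and -2.10, and U livers 1 to 3 at -2.61, -2.60 and -2.46. The level in N liver 1 was far above that in all 5 others, which lay within a narrow band. The mean difference was -1.85 (SE 0.75, 95% interval -3.45 to -0.24; limma adjusted p 0.999985) and -0.40 without N liver 1. With the replicate block its SE was 0.64. Within slide 1 the mean difference was -0.45 and within slide 2, which held N liver 1, it was -4.65. In the other 8 groups of the study no liver came near the value of N liver 1. For example, the 3 NK livers at T2 lay between -2.32 and -2.08 and the 3 UK livers between -2.63 and -1.98. The neighbour PigEx0031934 differed by 0.17 and PigEx0031935 by 0.999, the opposite direction, so that no run of probes carried the difference.

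PigEx0037459 belonged to a downward run of 3 consecutive probe numbers. It stood at 2.41, 3.15 and 2.49 in N livers 1 to 3 and at -0.30, 0.84 and 2.08 in U livers 1 to 3. The N livers lay close together while the U livers were spread, with U liver 3 only 0.33 below the lowest N liver. The means were 2.68 ± 0.40 (SD, n = 3) in N and 0.88 ± 1.19 in U, a difference of -1.81 (SE 0.94, 95% interval -3.81 to 0.20), or 3.50-fold lower in U. The limma adjusted p was 0.999985. With the replicate block in limma the SE was 0.72, the unadjusted p 0.0278 and the adjusted p 0.995. Within pairs the difference was -2.71, -2.30 and -0.41, within slide 1 it was -2.55, and within slide 2 it was -0.33.

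PigEx0037458 repeated the pattern, at 2.86, 3.10 and 2.75 in the N livers and -0.20, 1.004 and 2.61 in the U livers, a difference of -1.77, and of -1.10 without U liver 1. PigEx0037457 differed by -1.79, with groups that overlapped: U liver 3 lay at -0.71, above N liver 3 at -0.82. Over 30 arrays PigEx0037459 correlated at 0.99 with PigEx0037458 and at 0.8 with PigEx0037457. The longest stretch shared by PigEx0037459 with either was 7 bases on the same strand and 8 on the opposite strand.

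PigEx0046594 was a dim probe, whose sign in every pair was fixed by the choice of groups that did not overlap. It stood at -1.53, -3.10 and -3.56 in N livers 1 to 3 and at -4.01, -4.25 and -5.22 in U livers 1 to 3. N liver 1 was the highest of the 6, and the groups were 0.45 apart at their nearest. The difference was -1.76 (SE 0.76, 95% interval -3.38 to -0.15; limma adjusted p 0.999985), and within pairs it was -2.48, -1.16 and -1.66. With the replicate block its SE was 0.66. Within slide 1 the difference was -0.80 and within slide 2 it was -3.69. It was -1.16 without N liver 1 and -0.64 with normexp background correction. PigEx0046593 and PigEx0046595 differed less, by -0.942 and -0.995, with overlapping groups. They correlated with PigEx0046594 at 0.885 and 0.963 over 30 arrays.

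**Figure D3:**
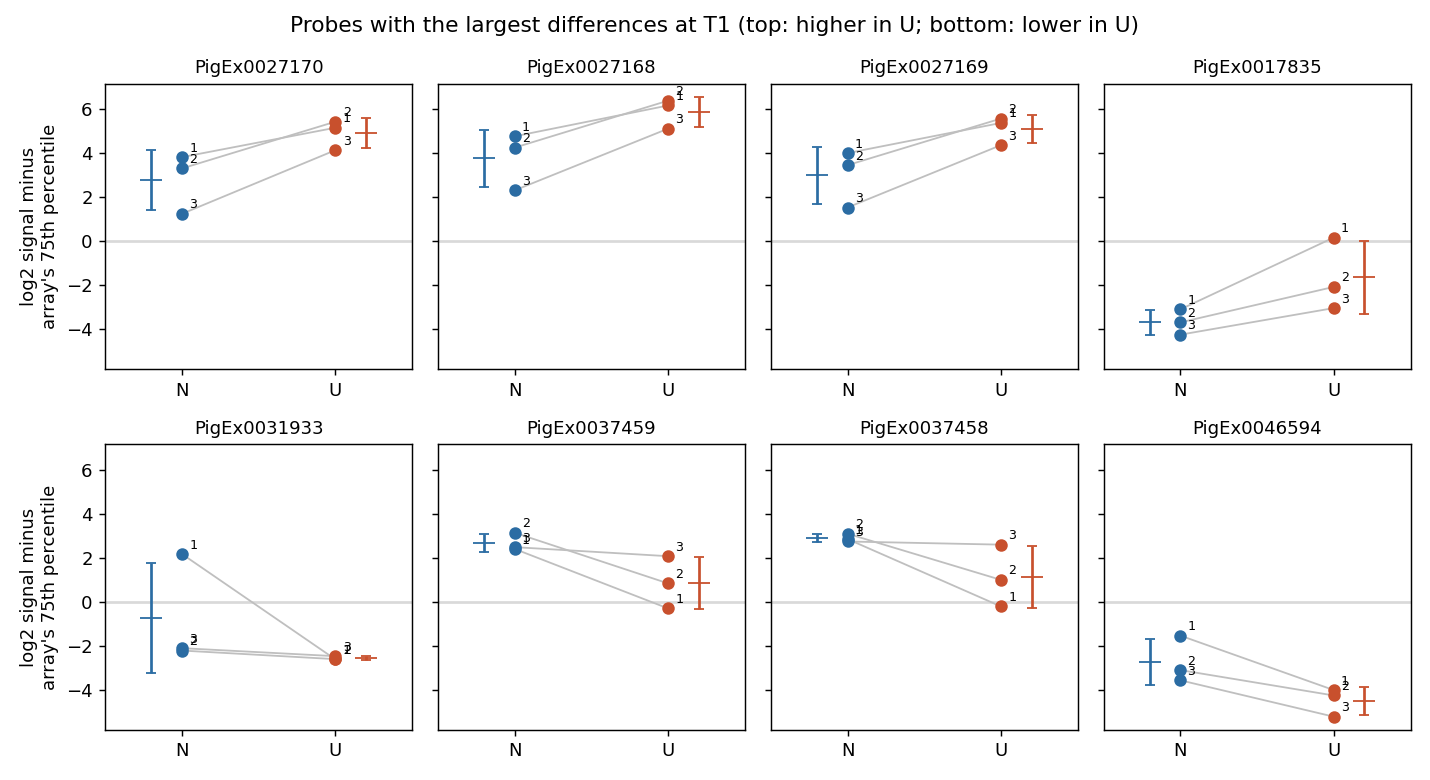
Level of the 8 probes on each T1 array (log2 signal minus the array's 75th percentile), N in blue and U in orange, with replicate numbers, lines joining equal numbers, and the mean ± SD of 3 livers beside the points. The run around PigEx0027169 and the pair PigEx0037458 and PigEx0037459 keep the order of the livers from probe to probe, and PigEx0031933 differs through N liver 1.

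The next 6 probes in each direction differed by 1.58 to 1.98 upward in U and by -1.30 to -1.04 downward. Over all 20 probes chosen by the rule, unadjusted p in limma ran from 0.0140 to 0.0852 in the upward set and from 0.00870 to 0.159 in the downward set, and the adjusted p was 0.999985 throughout. The nearest approach of the groups ranged from 0.06 to 0.94 upward and from 0.01 to 0.47 downward, so that for several probes the lack of overlap was by a narrow margin. The probes were 43.3 to 70% G and C in the upward set (median 55%) and 35 to 60% in the downward set (median 47.5%), against a median of 45% over all kept probes.

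Neighbouring numbers on the array tended to report together, as in the runs above. Over the 6 T1 arrays, the median correlation between kept probes 1 number apart was 0.682 (30581 pairs), and 41.3% of those pairs were above 0.8. At 2 numbers apart the median was 0.31, and from 3 to 1000 apart it was between 0.002 and 0.023. Shared sequence made up little of this: 181 of the pairs 1 apart (0.592%) had a stretch of 20 or more bases in common, and the median over the other 30400 was 0.679. A pair of adjacent probes is therefore not a pair of independent measurements, and the counts of probes above are not counts of genes.

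**Figure D4:**
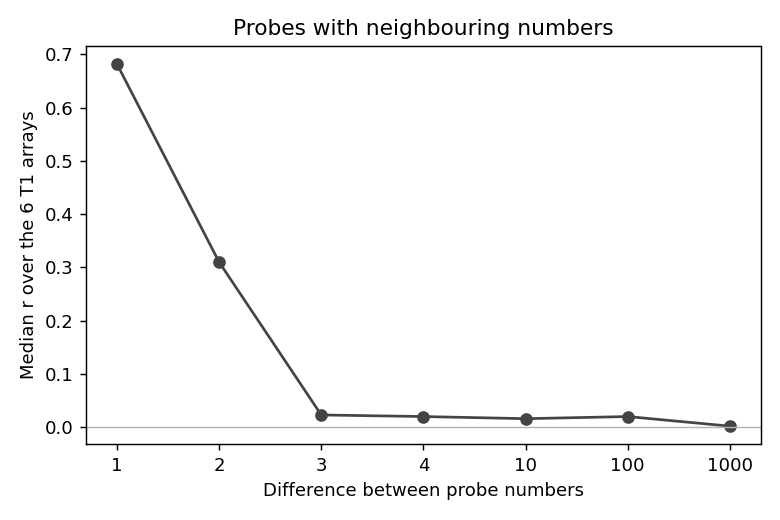
Median correlation over the 6 T1 arrays between kept probes, by the difference between their probe numbers (horizontal axis not to scale). It is 0.682 at 1 apart, 0.31 at 2 apart and at most 0.023 from 3 onward.

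Livers of other pigs gave the same contrast again after the restriction period. Between fed pigs at T2 (UK minus NK), restricted pigs at T2 (UR minus NR), and the same groups at T3, limma also called 0 probes in each of the 4 comparisons. At an unadjusted p under 0.05 they gave 1936, 1069, 794 and 681 probes. Across about 39320 probes, the T1 difference correlated at -0.031 with UK minus NK at T2, 0.01 with UR minus NR at T2, -0.036 with UK minus NK at T3 and -0.152 with UR minus NR at T3. None of these comparisons shares an array with T1, and the highest of the 4 correlations was 0.01.

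The 20 named probes did not keep their sign as a set. Of the 10 upward at T1, 2 were higher in UK than in NK at T2, 5 in UR than in NR at T2, 4 in UK than in NK at T3 and 7 in UR than in NR at T3. Their median differences there were -0.19, 0.07, -0.23 and 0.45, beside medians of 0.02, 0.01, 0.01 and -0.02 over all kept probes. Of the 10 downward at T1, 4, 4, 7 and 5 were lower in the low birth weight pigs of those comparisons, in the same order, with medians of 0.61, 0.23, -0.17 and -0.07. Over all kept probes, 53.3%, 51.1%, 51.0% and 46.9% lay above 0.

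In other pigs the difference for PigEx0027170 varied in sign. At T2 its 3 UK livers lay between 0.18 and 5.22 and its 3 NK livers between 2.30 and 4.92, a difference of -1.04 (SE 1.07). In restricted pigs the UR livers lay between 0.20 and 2.66, all below the NR livers at 3.14 to 4.54, a difference of -2.14 (SE 1.07). The UK livers alone thus spanned more than the difference between U and N at T1. At T3 the difference was -0.60 (SE 1.10) between UK and NK and 0.62 (SE 1.10) between UR and NR, the latter in the T1 direction. The T1 difference minus the T2 difference of fed pigs was 3.16 (SE 1.52, unadjusted p 0.0549 and adjusted p 0.999 in limma).

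For PigEx0037459 the UK livers lay between 1.10 and 5.44 and the NK livers between 1.47 and 3.34 at T2, a difference of 1.18 (SE 0.94). Between UR and NR it was 1.06 (SE 0.94) at T2, and at T3 it was 0.72 (SE 1.19) between UK and NK and -0.69 (SE 1.19) between UR and NR, the last in the T1 direction. Its T1 difference minus the T2 difference was -2.98 (SE 1.33, unadjusted p 0.0406 and adjusted p 0.999 in limma). PigEx0017835 differed by -0.79 (SE 1.10) and PigEx0046594 by 0.66 (SE 0.76) between UK and NK. Over all probes limma called 0 differences between the T1 and T2 contrasts (0%), with 1247 at an unadjusted p under 0.05, where evenly spread p-values would give 1966.

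**Figure D5:**
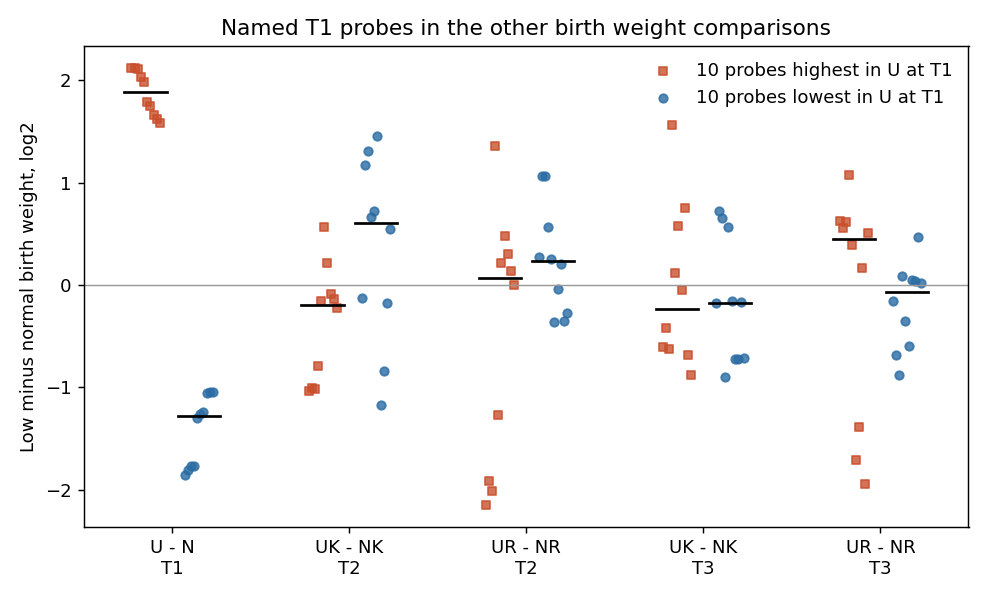
Low minus normal birth weight, log2, for the 10 probes highest (orange) and the 10 lowest (blue) in U at T1, in the T1 comparison and in 4 comparisons of other pigs; bars mark medians of 10. The sets lie apart at T1 by the choice of probes and overlap in each of the other comparisons.

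A second view asks which probes lay above background in a single birth weight group. All 3 U arrays and no N array were well above background for 77 of 60900 probes (0.126%), and all 3 N arrays and no U array for 8 (0.0131%). The share of probes well above background was 65.1%, 69.8% and 69.1% on the U arrays and 65.5%, 66.2% and 68.1% on the N arrays (exact two-sided permutation test, p = 0.5; the smallest p that 3 against 3 allows is 0.1). The 75th percentile signal was 404 ± 33.8 (SD, n = 3) on the U arrays and 445 ± 13.5 on the N arrays (exact two-sided permutation test, p = 0.2). The part of these array measures in the larger U count was not tested.

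As a bound, the group above background was set against the lowest signal called well above background on the arrays of the other, or the probe's own value where that was higher. The bound was at least 2-fold for 3 of the 77 and 2 of the 8, with a median of 1.37-fold and 1.63-fold. The largest was for this probe, shown because no other reached 3-fold.
PigEx0040622: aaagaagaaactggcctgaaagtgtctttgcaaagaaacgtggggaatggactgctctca
PigEx0040622 stood at -1.51, -4.05 and -2.09 in U livers 1 to 3 and at -4.71, -5.27 and -5.11 in the N livers. Its own N values were the higher, so its 5.59-fold is the plain ratio of the group means and not a lower bound (limma adjusted p 0.999985). U liver 2 lay closer to the N livers than to the other U livers. At T2 it was above background on 1 UK array and 0 NK arrays, with a difference of 0.01. Of the 77 probes, 31 were above background on more UK than NK arrays at T2 and 36 on equal numbers. Of the 8, none was above background on more NK than UK arrays and 2 were equal, so the rest also leaned to UK. The share of all probes above background on more UK than NK arrays at T2 is not given here. These counts are therefore not read as a repeat of the T1 pattern.

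The authors' table, whose 19864 rows carry human protein identifiers and no gene name, gave 0 calls too. Its rows were matched to probes by their values at T2 and T3 (24 arrays), and 7091 rows matched 1 probe each to within 0.1 log2 units of root mean square, with every other probe more than 2 times as far. At T1 limma called 0 rows at an adjusted p under 0.05 (0% called), with a lowest adjusted p of 0.168. Unadjusted, 568 rows lay under 0.05, and evenly spread p-values would give 993. All 3 U columns lay above all 3 N columns for 561 rows (2.82%) and below them for 588 (2.96%). Over 7080 rows matched to a kept probe, the U minus N difference of the table correlated at 0.983 with that of the scanner signals.

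The replicate order of the N columns in that table differs from that of the arrays. Across the matched rows, the table's N column 1 followed array N2 (r = 0.9904, against -0.561 with array N1), its N column 2 followed array N3 (0.9439, against 0.0491 with array N2), and its N column 3 followed array N1 (0.9827, against -0.286 with array N3). The U columns followed their own arrays, at 0.9787 to 0.9887. These correlations are over rows centred on their means at T1, 7091 rows, and describe which column matches which array. The group means and the comparison of U with N are not touched by the order, and pairs by number were therefore formed from the scanner signals.

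Row ENSP00000350425, which equalled PigEx0027169 with a root mean square of 0.0453 (the next probe was at 0.212), held intensities of 4715.3, 1250.5 and 6857.3 in the N columns and 16842.2, 19592.4 and 9106.9 in the U columns. All U values exceed all N values, and the difference was 2.07 on the log2 scale (SE 0.70; limma adjusted p 1). Row ENSP00000301645, which equalled PigEx0037459 at 0.0588 (next 0.293), held 3693.3, 2419.3 and 2239.7 in N and 347.7, 752.5 and 1843.3 in U, a difference of -1.79 (SE 0.63; limma adjusted p 1). These are bright rows, since the median of a T1 column was 48.0 to 48.6. Among rows whose groups did not overlap, the largest difference upward, 2.63 (SE 0.66; limma adjusted p 1), was that of row ENSP00000377492, with 17.5, 15.7 and 31.8 in N and 236.5, 179 and 49 in U, matched here to no single probe. The largest downward among such rows, -1.84 (SE 1.11; limma adjusted p 1), was row ENSP00000356722, with 92.7, 7.8 and 6.3 in N and 6.1, 5.8 and 2.8 in U, which rested on a single N column.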

How the data were processed

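Liver RNA was read on 1-colour arrays, and the deposited intensity is the processed signal, which Agilent's Feature Extraction (10.5.1.1) background subtracted and detrended, per the file headers. The authors' table of intensities has no statement of how it was made. Sorted T1 columns differed by at most 0.0265 (root mean square, log2) and from other columns by at least 0.0991, so it was tested only within T1.

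Scanner signals were taken as log2 minus each array's 75th percentile in R 4.3.3 with version 1.17.8 of data.table. Matching and plots used Python 3.11.15 with matplotlib 3.10.9, numpy 2.4.6 and pandas 2.3.3. Outlier spots, 17 to 40 per T1 array, were set missing, and 0 spots were saturated. Kept probes were those well above background on each of the 3 arrays of N, or of U, at T1 (39322 probes, 81 with a missing T1 value). Limma 3.58.1 was fitted to the 18 arrays of T1 and T2 (12 residual degrees of freedom, prior 3.38) with Benjamini-Hochberg adjustment over all kept probes and two-sided tests. The comparisons at T3 came from a fit of its 12 arrays. The limma fit was tested on simulated arrays with independent spread and no structure by replicate number, a structure that these data have.

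Named probes were the 10 with the largest difference in each direction among complete probes well above background on all 6 T1 arrays with groups that did not overlap, 4 of them in full. Only the largest of the probes above background in a single group, and 4 table rows, taken from rows whose groups did not overlap, are printed. The members, rules and gene lists were chosen with earlier results of these data known. The gene lists and cell markers gave no result, because no table used here names the probes. No column from outside the 30 arrays of the study was used (0).

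Equal replicate numbers were checked by correlating deviations from group means across probes: 0.466, 0.488 and 0.403 for equal numbers, and -0.472 to 0.086 for unequal numbers of different groups. The numbers were used to form pairs and, as an alternative, a block. The intervals, main SEs and main p-values of probes come from the fit without that block. The labels speak of selection within a litter, without tying the numbers to litters. Limma p-values of probes rest on the spread between pigs within groups, pooled over the T1 and T2 arrays, or over the T3 arrays. Those of the authors' table rest on T1 alone, so its SEs and those of the probes are not alike. The number of 3 pigs per group limits the precision.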

Additional observations from a re-analysis of the deposited data

How the results depend on the processing

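The count of probes called between U and N stayed at 0 under all 18 alternatives, at lowest adjusted limma p-values from 0.0856 (without U liver 2) to 0.999995. The interaction with T2 stayed at 0 under 15 alternatives and the authors' table at 0 under 8. The number of probes at an unadjusted p under 0.05, 700, became 415 with all 30 arrays, 1210 with no filter on dim probes, 1605 with the replicate block, 2058 with array weights and, chosen after seeing the data, 2041 with the replicate block in the 6 T1 arrays. Leaving out an array gave 579 to 1942, with 1187 without U liver 2 and 1942 without U liver 3. With normexp, replicate number held 66.1% of the T1 sum of squares and the remainder 21.3%. For replicate number, with alternatives all chosen after seeing the data, the 2053 calls became 57 in the 6 T1 arrays, 1197 with no filter, 1205 with array weights and 2 without number 1, and 174 to 1722 without 1 array (1030 without N liver 2, 1133 without N liver 3, 174 without U liver 1, 806 without U liver 2, 817 without U liver 3). The cause was not tested. Each of the 8 probes given in full kept its sign under 17 alternatives, which carries little weight. Their groups did not overlap by choice, so leaving out arrays could not reverse the sign. Several other alternatives change the spread and not the difference. The size moved by over 1.5 times for some. With normexp PigEx0046594 went from -1.76 to -0.64 and PigEx0017835 from 2.03 to 1.19, and with array weights PigEx0031933 went from -1.85 to -1.07. Without U liver 1 PigEx0037458 was -1.10 and PigEx0017835 1.12, without N liver 1 PigEx0046594 was -1.16 and PigEx0031933 -0.40, and without N liver 3 PigEx0027168, PigEx0027169 and PigEx0027170 were 1.38, 1.38 and 1.35. The replicate block changed no call. The alternatives planned for gene lists were not run, because the probes carry no names. Only 3 pigs per group, and signal near background for dim probes, limit the precision.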
